A study of Mus musculus with 4 samples.

Results

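Platelet transcripts were followed through the leukocytes of mouse blood and through neutrophils of inflamed skin. The 9 transcripts are Pf4, Ppbp, Nrgn, Gng11, Treml1, Itga2b, Gp9, Alox12 and Clec1b, 9 of the 31053 features counted in 4 droplet single-cell RNA libraries, and each symbol matched 1 row. They were selected with earlier results of the same libraries in view, in which transcripts of this kind were far lower in neutrophils of skin than in neutrophils of blood. That contrast is therefore given as a description and supports nothing.

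All mice were C57BL/6J, aged 6 to 8 weeks, and received 250 µg of IgG by injection 3 times a week for 2 weeks. In the EBA group this was antigen affinity purified vWFA2-COL7 IgG, directed to a domain of collagen VII, in a transfer model of the blistering disease epidermolysis bullosa acquisita (EBA). In the IgG group it was control rabbit IgG, so the control mice were also injected with antibody. Blood was drawn from behind the eye and its red cells were lysed, and ear skin was digested with enzymes. Cells of the 3 mice of a group were pooled, which gave 1 library of blood and 1 of skin for each group, called IgG blood, IgG skin, EBA blood and EBA skin. Without replicates no test was possible, the antibody cannot be told apart from the mice or the preparation of a library, and every interval below covers counting error only. Intervals of levels, proportions and ratios, and the calls made from them, treat UMIs as independent. They do not cover the uneven spread of UMIs over barcodes, described below, and are too narrow for it.

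Platelets are fragments of megakaryocytes. They have no nucleus but keep messenger RNA of the parent cell, rich in transcripts for granule chemokines, adhesion receptors and signalling proteins. Circulating platelets can bind neutrophils and monocytes, chiefly through P-selectin (Selp) on the platelet and its ligand PSGL-1 (Selplg) on the leukocyte, and such aggregates are counted in blood as a sign of platelet activation. A droplet that captures a leukocyte with a platelet gives 1 barcode with RNA of both. From counts per barcode, a platelet bound to a leukocyte, a platelet that entered the droplet separately and platelet RNA adhering to or taken up by the leukocyte cannot be told apart.

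The members have 4 kinds of role. Pf4 and Ppbp encode chemokines of the alpha granules, and on chromosome 5 of the mm10 build 2371 bases separate the end of Ppbp (90768518 to 90770063) from the start of Pf4 (90772435 to 90773383). Itga2b encodes the alpha subunit of the fibrinogen receptor (chromosome 11, 102453297 to 102470122), Gp9 a subunit of the receptor for von Willebrand factor (chromosome 6, 87778072 to 87779768), Clec1b the podoplanin receptor CLEC-2 (chromosome 6, 129397297 to 129409335) and Treml1 a receptor stored in the granule membrane (chromosome 17, 48359916 to 48367176). Alox12 encodes the platelet 12-lipoxygenase, an enzyme of arachidonic acid metabolism (chromosome 11, 70241457 to 70255353). Gng11 encodes a G protein gamma subunit (chromosome 6, 4003904 to 4008445) and Nrgn the calmodulin-binding protein neurogranin (chromosome 9, 37544492 to 37552904). Clec1b overlaps Clec9a, a counted gene on the same strand, in the GENCODE annotation, so its counts are uncertain where reads fell in the shared stretch. Itga2b overlaps a small RNA gene that was not counted.

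In blood the members were all highest in platelet-like barcodes and higher in both myeloid classes than in lymphocytes, as described below. Their promoters were therefore searched for the letters bound by GATA and ETS factors, which drive megakaryocyte genes. The RefSeq promoter table (GRCm38.p6) held 8 of the 9 members. In the 250 bases before the start, on both strands, the GATA letters AGATAA and TGATAA were searched, as were AGATAG and TGATAG. The ETS letters searched were AGGAAG and CGGAAG. Of the 8 promoters, 1 held a GATA match (Clec1b, 189 bases before the start), as did 26.5% of 32851 promoters. An ETS match was present in 3 of the 8 (9 bases before the start of Pf4, 16 before Gp9, and 125 and 43 before Itga2b) and in 39.2% of promoters. Neither share of the members was above that of all promoters, and no member promoter held both kinds of match. The 4 promoters with a match are shown 5′ to 3′ along the gene, with the matched letters in capitals: Pf4 at chr5:90772185-90772434 (plus strand), Itga2b at chr11:102469884-102470133 (minus strand), Gp9 at chr6:87777820-87778069 (plus strand) and Clec1b at chr6:129397047-129397296 (plus strand).
Pf4: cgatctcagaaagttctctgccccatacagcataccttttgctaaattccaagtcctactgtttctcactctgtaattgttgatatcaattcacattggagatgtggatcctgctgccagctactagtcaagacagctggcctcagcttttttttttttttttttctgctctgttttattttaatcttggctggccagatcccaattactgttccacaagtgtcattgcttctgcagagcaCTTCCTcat
Itga2b: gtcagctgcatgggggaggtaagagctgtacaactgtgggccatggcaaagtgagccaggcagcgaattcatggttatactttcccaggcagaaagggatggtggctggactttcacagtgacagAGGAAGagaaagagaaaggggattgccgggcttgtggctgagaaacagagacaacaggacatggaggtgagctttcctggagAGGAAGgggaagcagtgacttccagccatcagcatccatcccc
Gp9: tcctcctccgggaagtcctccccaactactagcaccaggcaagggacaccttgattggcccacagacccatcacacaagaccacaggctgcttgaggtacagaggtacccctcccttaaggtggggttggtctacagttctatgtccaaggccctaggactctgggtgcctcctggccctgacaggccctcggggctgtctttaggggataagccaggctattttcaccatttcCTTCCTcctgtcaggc
Clec1b: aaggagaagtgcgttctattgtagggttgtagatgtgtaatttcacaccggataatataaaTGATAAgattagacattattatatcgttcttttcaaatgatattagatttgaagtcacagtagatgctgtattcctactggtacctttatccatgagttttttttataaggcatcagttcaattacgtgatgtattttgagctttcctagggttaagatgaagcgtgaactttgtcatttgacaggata

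The libraries held 5008 to 6770 barcodes and 22705634 to 90829463 UMIs, of which 4349 barcodes of IgG blood, 3325 of EBA blood, 5106 of IgG skin and 4134 of EBA skin were kept. Pairs of libraries shared 5 to 9 kept barcode sequences. Cells were clustered with the members and the listed platelet genes left out, and clusters were named from markers. Neutrophil-like barcodes lay mainly in cluster 14 in IgG blood (420 barcodes) and in clusters 8 and 18 in EBA blood (512 and 286), the last led by the granule genes Camp, Ngp and Ltf. Monocyte-like barcodes lay in cluster 11, which had Ccr2 and Fn1 among its leading genes, and in cluster 25, which had Ace and Treml4. Platelet-like barcodes (84 in IgG blood and 198 in EBA blood) formed cluster 19, which had the markers Gp5, Tubb1 and Cavin2 among its leading genes and median depths of 941 and 814.5 UMIs.

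Among leukocyte classes, each taken as a whole, the platelet transcripts were high in neutrophil-like and monocyte-like barcodes and low in lymphocytes. Their summed level, as counts per 1000000 UMIs of a class (CPM), was 56386 in platelet-like barcodes of IgG blood (95% exact Poisson interval 55146 to 57647) and 86399 in those of EBA blood (85168 to 87643). Neutrophil-like barcodes had 7866 CPM in IgG blood (7710 to 8025) and 5586 in EBA blood (5539 to 5634). Monocyte-like barcodes had 2102 (2041 to 2165) and 7049 (6995 to 7104), so neutrophils stood above monocytes in IgG blood and below them in EBA blood. Each barcode was also named by detected markers alone, taking the class with the largest share of its markers detected. By this, 248 of the 389 monocyte-like barcodes of EBA blood were neutrophil-like, and whether these are doublets was not tested. The 101 that were monocyte-like by detected markers as well had 2982 CPM, below the neutrophils, so the order in EBA blood turns with this requirement. The 225 such barcodes of IgG blood had 1862 CPM. NK cell-like barcodes had 384 CPM in IgG blood (345 to 426) and 491 in EBA blood (437 to 550). T cell-like barcodes had 111 and 173 CPM, and B cell-like barcodes 89.8 (83.3 to 96.7) and 140 (128 to 154). Within each library the intervals of T and B cells lay below those of NK cells, and those of NK cells far below those of both myeloid classes. Monocyte cluster 25 of IgG blood, taken apart, had 367 CPM (322 to 416), no higher than the NK cells of that library. A single barcode held 76 of the 301 member UMIs of EBA NK cells, a spread that these intervals do not cover.

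**Figure D1:**
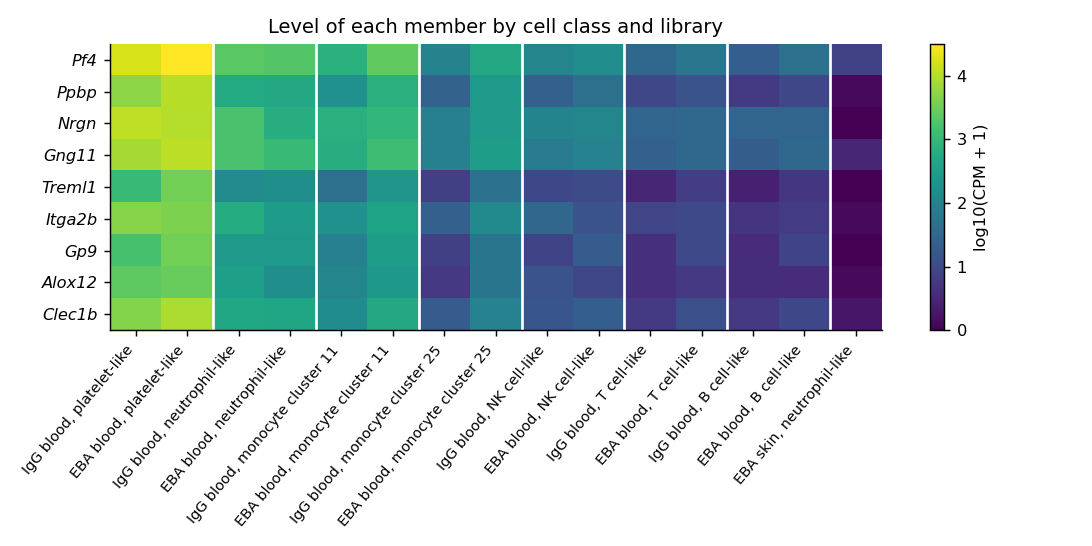
Level of each of the 9 members, as log10(CPM + 1) on the colour scale, in the cell classes of both blood libraries, with monocytes split into clusters 11 and 25, and in neutrophil-like barcodes of EBA skin. Summed over members, platelet-like barcodes have 56386 and 86399 CPM, neutrophil-like barcodes of blood 7866 and 5586, and neutrophil-like barcodes of EBA skin 10.4.

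The granule chemokines show the levels by class. Pf4 had 17123 CPM in platelet-like barcodes of IgG blood and 31765 in those of EBA blood, 2210 and 1966 in neutrophil-like, 555 and 2471 in monocyte-like and 20.8 and 45 in B cell-like barcodes. Ppbp had 5191 and 10524 CPM in platelet-like, 564 and 525.5 in neutrophil-like, 137 and 697 in monocyte-like and 4.80 and 7.99 in B cell-like barcodes. The other members were likewise highest in platelet-like barcodes, then in the myeloid classes, and lower in lymphocytes, in both libraries. Set against its CPM in platelet-like barcodes of the same library, each member reached 10.9% (Ppbp) to 20.1% (Gng11) of it in IgG neutrophils, and 4.99% (Ppbp) to 9.60% (Gng11) in EBA neutrophils. For the sum these values were 13.95% and 6.47% in neutrophils, 3.73% and 8.16% in monocytes and 0.681% and 0.569% in NK cells. In T and B cells they hardly differed between libraries, with 0.196% and 0.200% in T cells and 0.159% and 0.162% in B cells.

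A deeper barcode has more chances to hold a platelet UMI, so each barcode was thinned to 500 UMIs, which left out none. After thinning, 77.4% of 455 neutrophil-like barcodes of IgG blood held at least 1 member UMI (exact Clopper-Pearson interval 73.2% to 81.1%), and 68.6% of 814 in EBA blood (65.2% to 71.7%). For monocyte-like barcodes the shares were 33.9% of 251 in IgG blood (28.0% to 40.1%) and 77.6% of 389 in EBA blood (73.2% to 81.7%). The neutrophil share was thus high in both libraries. The monocyte shares come from unlike mixtures of clusters, with 140 barcodes of cluster 11 and 111 of cluster 25 in IgG blood and 345 and 44 in EBA blood. With monocytes named by cluster and detected markers together they were 28.4% (22.65% to 34.8%) and 51.5% (41.3% to 61.55%). B cells had 3.90% in IgG blood (3.11% to 4.82%) and 6.08% in EBA blood (4.51% to 7.975%), and whether they make any of these transcripts was not tested. T cell-like barcodes had 2.97% (2.09% to 4.08%) and 5.23% (3.67% to 7.20%), with intervals that overlap those of B cells. By summed CPM they stood above B cells, with 111 against 89.8 in IgG blood and 173 against 140 in EBA blood. NK cell-like barcodes had 8.26% (5.05% to 12.6%) and 13.1% (8.59% to 18.9%), above the interval of B cells in either library.

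Without thinning, 92.3% of neutrophil-like barcodes of IgG blood and 91.3% of those of EBA blood held a member UMI, where the median barcode had 2410 and 9958 UMIs. The unthinned shares were 68.9% and 94.3% for monocytes, at 8170 and 18235 UMIs, and 12.8% and 17.1% for B cells, at 3436 and 3677 UMIs. RNA of other cells was measured in the same thinned barcodes. A haemoglobin UMI was present in 7.51% of B cell-like barcodes of IgG blood and in 21.8% of those of EBA blood, and a UMI of the neutrophil alarmins S100a8 and S100a9 in 1.299% and 16.8%. A B cell or immunoglobulin UMI was present in 9.23% of neutrophil-like barcodes of IgG blood and in 1.72% of those of EBA blood. The part of such RNA in the member shares of lymphocytes was not tested.

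**Figure D2:**
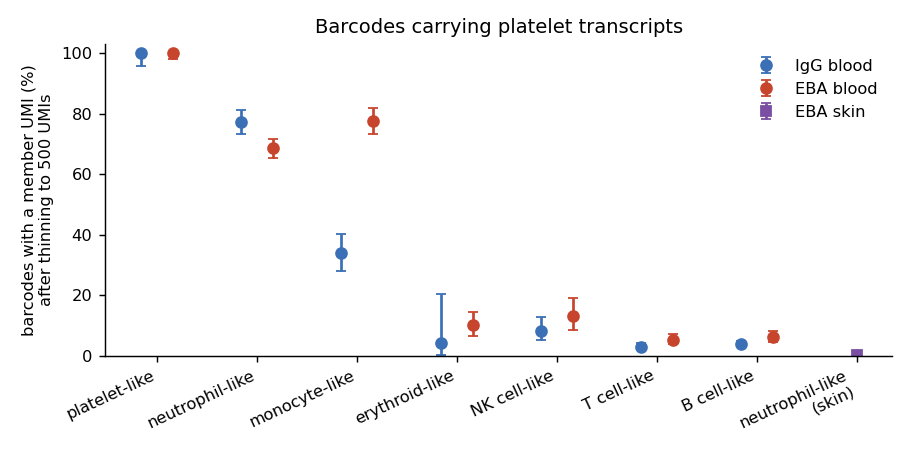
Percent of barcodes with at least 1 UMI of the 9 members after thinning to 500 UMIs (y axis) by cell class (x axis), with exact 95% intervals for counting error. Neutrophil-like barcodes stand at 77.4% in IgG blood and 68.6% in EBA blood, monocyte-like barcodes at 33.9% and 77.6%, and neutrophil-like barcodes of EBA skin at 0.341%.

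The clusters of a class differed widely. In EBA blood 93.2% of thinned barcodes of neutrophil cluster 8 held a member UMI (90.6% to 95.2%), with 8698 CPM. The granule-gene cluster 18 had 27.6% (22.5% to 33.2%) and 718 CPM, although it was the deeper, with a median of 12011 UMIs against 7998. In IgG blood cluster 14 had 76.9% (72.6% to 80.85%) and 5795 CPM, and the 35 barcodes that fell into cluster 8 had 97.1% (85.1% to 99.9%) and 24712 CPM. Monocyte cluster 11 had 52.1% in IgG blood (43.5% to 60.65%) and 79.4% in EBA blood (74.8% to 83.6%), and cluster 25 had 12.6% (7.07% to 20.3%) and 38.6% (24.4% to 54.5%). In each library cluster 11 stood above cluster 25. The clustering left out the members but not every gene that platelets carry, so these differences are a description.

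Among kept barcodes of blood, myeloid leukocytes held more of the member UMIs than platelet-like barcodes did. Removed barcodes are not counted here. In IgG blood 40.5% of the 23814 member UMIs lay in neutrophil-like, 18.5% in monocyte-like and 33.0% in platelet-like barcodes, which were 10.5%, 5.77% and 1.93% of kept barcodes. In EBA blood, of 138136 member UMIs, 38.5%, 46.1% and 13.6% lay in these classes, which were 24.5%, 11.7% and 5.955% of kept barcodes. B cell-like barcodes, 47.8% and 23.8% of those kept, held 2.99% and 0.343% of the member UMIs.

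Member UMIs were unevenly spread over the barcodes of a class. Neutrophil-like barcodes of IgG blood held 0 to 390 member UMIs (median 12, quartiles 4 and 26), and those of EBA blood 0 to 1676 (median 36, quartiles 9 and 83). Monocyte-like barcodes held 0 to 625 (median 4) and 0 to 2529 (median 77). Platelet-like barcodes held 13 to 476 (median 65.5) and 13 to 441 (median 71.5), so the highest monocyte-like barcodes exceeded every platelet-like barcode in both libraries, and the highest neutrophil-like barcodes in EBA blood. At or above the platelet-like median of their own library were 5.71% of IgG neutrophils (3.77% to 8.26%), 29.1% of EBA neutrophils (26.0% to 32.4%), 5.98% of IgG monocytes (3.38% to 9.665%) and 51.9% of EBA monocytes (46.8% to 57.0%). These shares are not corrected for depth, which was greater in EBA blood. No B cell-like barcode reached that median, of 2078 and 790, and the exact upper limits are 0.177% and 0.466%.

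After thinning, the variance of member UMIs over barcodes was 4.75 times the mean in IgG neutrophils and 4.63 times in EBA neutrophils. It was 3.45 and 2.80 times the mean in monocytes and 1.60 and 2.19 times in B cells. At least 10 of the 500 thinned UMIs came from members in 8.79% of IgG and 8.23% of EBA neutrophils, and in no B cell-like barcode. Without thinning, the 10% of neutrophil-like barcodes with most member UMIs held 43.4% of them in IgG blood and 44.2% in EBA blood. Also without thinning, and so at the greater depth of EBA blood (medians of 2410 and 9958 UMIs in neutrophils and 8170 and 18235 in monocytes), all 9 members were found together in 9.45% of IgG and 35.75% of EBA neutrophils, in 7.97% of IgG and 54.0% of EBA monocytes, and in 51.2% and 65.15% of platelet-like barcodes.

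**Figure D3:**
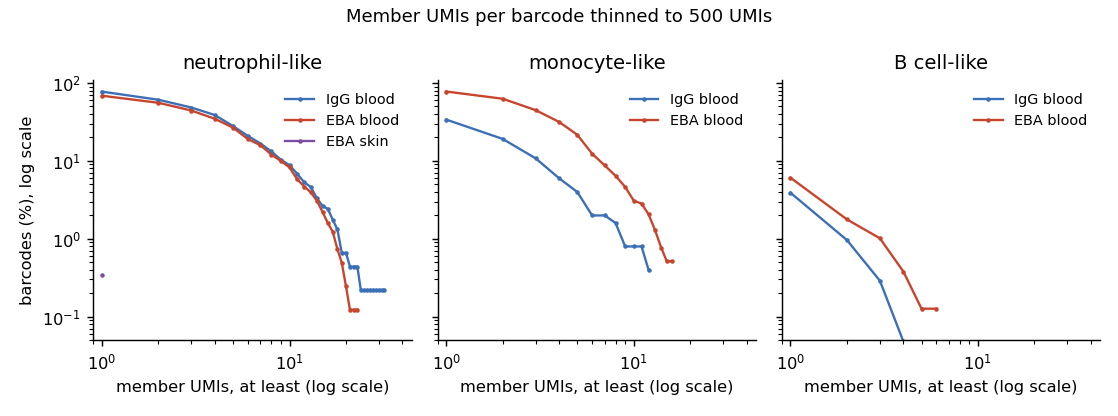
Percent of barcodes (y axis, log scale) with at least a given number of member UMIs (x axis, log scale) after thinning to 500 UMIs. At 3 or more UMIs the neutrophil-like barcodes of IgG and EBA blood stand close together, at 48.35% and 44.2%, and the monocyte-like barcodes apart, at 10.8% and 44.7%.

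The proportions of several members differed between the libraries in the same direction in platelet-like and in neutrophil-like barcodes. Nrgn was 20.5% of member UMIs in platelet-like barcodes of IgG blood (19.65% to 21.45%) and 11.6% in those of EBA blood (11.15% to 12.1%). In neutrophil-like barcodes it was 20.8% (20.01% to 21.6%) and 11.5% (11.25% to 11.8%), the same pair of values within counting error. Monocyte-like barcodes had more Nrgn, with 24.8% (23.55% to 26.1%) and 13.1% (12.9% to 13.4%), above the platelet-like intervals. Pf4 made up 30.4% and 36.8% in platelet-like and 28.1% and 35.2% in neutrophil-like barcodes, and Itga2b 8.73% and 4.70% against 7.755% and 5.46%. In IgG blood the neutrophil proportion of 9 of 9 members was nearer to that of IgG than of EBA platelet-like barcodes. For Pf4, Ppbp and Clec1b, below both platelet-like values, and Gng11, above both, this says only on which side they lay. In EBA blood 6 of 9 were nearer to their own library, and Ppbp, Gng11 and Clec1b were nearer to the other.

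Those 3 members also differed between neutrophils and platelet-like barcodes of 1 library, and they were not the only ones. The intervals of Pf4 were apart in both libraries. In EBA blood those of Itga2b were apart too, as were those of Treml1 (3.99% in platelet-like barcodes and 3.15% in neutrophils) and Gp9 (4.12% and 4.79%). Gng11 was 14.1% of member UMIs in IgG platelet-like barcodes (13.3% to 14.9%) and 20.3% in IgG neutrophils (19.5% to 21.1%), and in EBA blood 13.2% (12.7% to 13.65%) and 19.5% (19.2% to 19.9%). Ppbp was 9.21% in platelet-like barcodes and 7.17% in neutrophils of IgG blood, and 12.2% and 9.41% in EBA blood. Clec1b was 8.07% and 6.39% in IgG blood and 10.15% and 7.855% in EBA blood. Neutrophils thus carried relatively more Gng11 and less Ppbp and Clec1b. In B cells Nrgn was 31.1% in IgG blood (27.7% to 34.6%) and 20.04% in EBA blood (16.5% to 23.9%), above its 20.5% and 11.6% in the platelet-like barcodes of the same libraries.

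**Figure D4:**
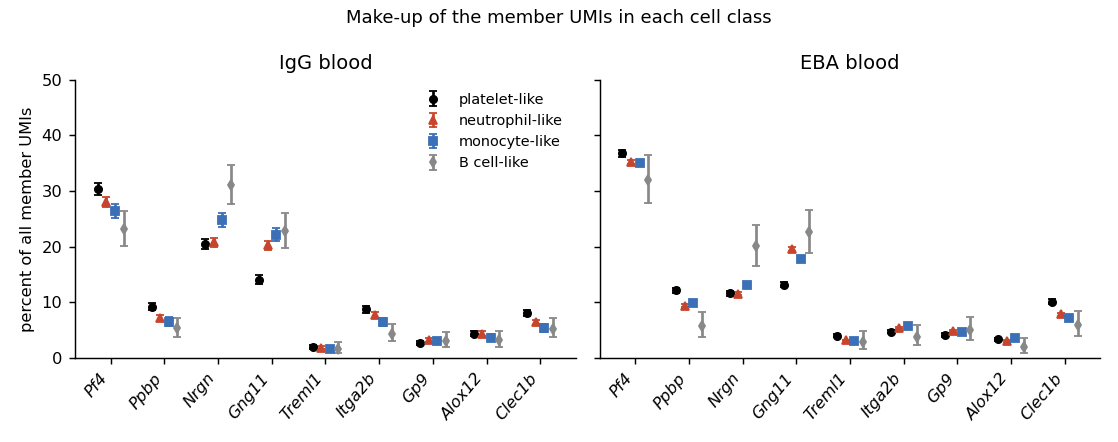
Percent of all member UMIs held by each member (y axis) in platelet-like, neutrophil-like, monocyte-like and B cell-like barcodes of IgG blood and EBA blood, with exact 95% intervals. Nrgn stands at 20.5% and 20.8% in platelet-like and neutrophil-like barcodes of IgG blood and at 11.6% and 11.5% in those of EBA blood.

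EBA and IgG blood were compared within each class. Calls required a ratio of at least 2 (higher) or at most 0.5 (lower) and an exact 95% interval that excluded 1. The main ratio is relative to the median ratio of all measured genes, which on the log2 scale was −1.08 in neutrophils, −0.49 in monocytes, −0.40 in platelet-like barcodes, −0.33 in B cells, −0.28 in T cells and −0.19 in NK cells.

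In platelet-like barcodes 5 of 9 members were called higher in EBA blood, as were 13.5% of all genes. The receptor Treml1 had 3448 CPM in EBA and 1084 in IgG blood (relative ratio 4.203, 3.52 to 5.04), and Gp9 had 3563 and 1544 (3.05, 2.62 to 3.56). Ppbp, Clec1b and Pf4 had relative ratios of 2.68, 2.545 and 2.45. By plain CPM 3 members were called higher (Treml1, Gp9 and Ppbp, with 5.49% of all genes). Nrgn and Itga2b had relative ratios of 1.14 and 1.09 and CPM ratios of 0.8655 and 0.825.

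In neutrophils the direction of the sum depended on the scale. By CPM it was lower in EBA blood (ratio 0.710, 0.695 to 0.726), and relative to the median gene it was higher (1.503, 1.47 to 1.54). On the relative scale 2 of 9 members were called higher (with 14.2% of all genes) and 0 lower (with 12.3%). They were Treml1, with 176 CPM in EBA and 146 in IgG blood (2.555, 2.19 to 3.00), and Gp9, with 267 and 259 (2.18, 1.94 to 2.46). By CPM 0 were called higher (with 4.41% of all genes) and 1 lower (with 54%), Nrgn, with 643 and 1638 CPM (CPM ratio 0.393). The order of members resembled that in platelet-like barcodes of the same libraries, with Treml1 and Gp9 highest and Alox12, Itga2b and Nrgn lowest in both classes. Within cluster 8, with 512 EBA and 35 IgG barcodes, the sum was lower in EBA blood on both scales (relative ratio 0.671, 0.648 to 0.695, and CPM ratio 0.352). There 0 members were called higher (with 9.89% of all genes) and 3 lower on the relative scale (Nrgn, Itga2b and Alox12, with 9.27% of all genes), and by CPM 7 were lower (with 28.1%).

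In monocytes the members were higher in EBA blood on both scales. The sum had a CPM ratio of 3.35 (3.25 to 3.46) and a relative ratio of 4.70 (4.55 to 4.84), and 9 of 9 members were called higher, with 11% of all genes. Treml1 had 215 CPM in EBA and 32.95 in IgG blood (relative ratio 9.14, 7.19 to 11.8), Ppbp 697 and 137 (7.12, 6.33 to 8.04) and Gp9 324 and 64.5 (7.04, 5.93 to 8.43). Nrgn had the smallest ratio, with 926.5 and 522 CPM (2.49, 2.33 to 2.65), and by CPM 8 of 9 members were called higher, all but Nrgn (with 6.84% of all genes).

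The EBA barcodes of monocyte cluster 11 also carried RNA of neutrophils. The neutrophil markers Retnlg and Ly6g had 10918 and 342 CPM in EBA blood, against 386 and 2.79 in IgG blood, and an alarmin UMI was present in 85.5% and 20.7% of thinned barcodes. By detected markers, 248 of 389 monocyte-like barcodes of EBA blood were neutrophil-like, against 20 of 251 in IgG blood. These 248 had a median depth of 24162 UMIs, 7534 member CPM and a member UMI in 86.7% of thinned barcodes. When barcodes had to be monocyte-like by cluster and by detected markers, 101 in EBA and 225 in IgG blood remained, with 2982 and 1862 member CPM (relative ratio 1.85, 1.76 to 1.94). Then 5 of 9 members were called higher (Pf4, Ppbp, Treml1, Gp9 and Clec1b, with 5.46% of all genes). In cluster 11 alone, 66 and 118 such barcodes had 3200 and 2672 CPM (1.365, 1.298 to 1.44), and Treml1 alone was called (with 5.54% of all genes). The barcodes named monocyte by cluster and detected markers still held neutrophil marker RNA. It was at 12687 CPM in the 101 EBA and 2105 in the 225 IgG barcodes, and in cluster 11 at 14905 and 3130. The part of neutrophil RNA in the monocyte result was not tested further.

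Monocyte cluster 25 carried little neutrophil RNA. Ly6g was at 0 CPM in both libraries, Retnlg at 34.8 CPM in EBA and 27.3 in IgG blood, and S100a8 at 139 and 411. Its 44 EBA and 111 IgG barcodes had 1803 and 367 member CPM (relative ratio 5.08, 4.30 to 6.00, and CPM ratio 4.91), and 9 of 9 members were called higher, with 2.98% of all genes. Pf4 had 522 CPM in EBA and 102 in IgG blood (105 and 67 UMIs, relative ratio 5.30, 3.87 to 7.32), and Ppbp 268 and 25.8 (54 and 17 UMIs, 10.75, 6.14 to 19.8). The intervals were wide for Treml1, Gp9 and Alox12, which had 10 or 11 UMIs in EBA and 3 or 4 in IgG blood. With the marker condition added, 35 and 107 barcodes had 1784 and 368 CPM (5.07, 4.26 to 6.04), with 9 of 9 members higher (2.87% of all genes). Haemoglobin was present in 29.55% of thinned EBA and 9.01% of thinned IgG barcodes of this cluster and an alarmin UMI in 15.9% and 2.70%, and their part in the result was not tested.

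**Figure D5:**
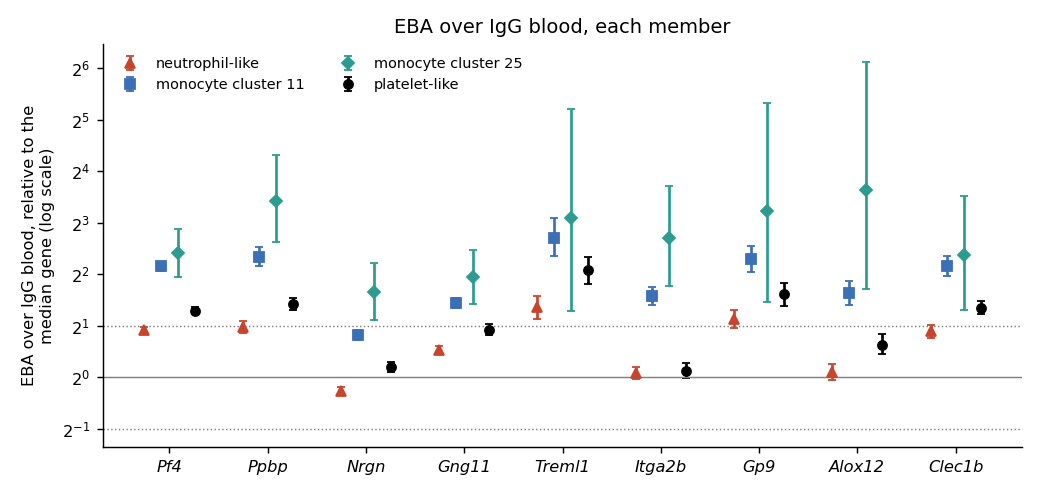
EBA over IgG blood ratio of each member relative to the median of all genes (y axis, log scale) in neutrophil-like barcodes, monocyte clusters 11 and 25 and platelet-like barcodes, with exact 95% intervals for counting error and dotted lines at ratios of 2 and 0.5. Ratios run from 0.832 (Nrgn) to 2.555 (Treml1) in neutrophils, from 1.76 (Nrgn) to 6.51 (Treml1) in cluster 11, and from 3.155 (Nrgn) to 12.4 (Alox12) in cluster 25.

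In lymphocytes 8 members were measured in NK cells, 5 in T cells and 3 in B cells. The sums of the libraries were less far apart than in monocytes named by cluster (relative ratio 4.70). Monocytes named by cluster and detected markers together had 1.85, which lies within the range of the lymphocyte ratios. NK cells had a relative ratio of 1.46 (1.25 to 1.71), with 2 of 8 called higher (Ppbp and Gp9, with 1.85% of all genes). By CPM 0 of these 8 were higher (1.09% of all genes) and 1 was lower (Itga2b, with 6.83%). T cells had 1.90 (1.71 to 2.10), with 3 of 5 (Pf4, Ppbp and Clec1b, with 1.51%), and B cells 1.96 (1.74 to 2.20), with 1 of 3 (Pf4, with 1.13%). By CPM 1 of 5 was higher in T cells (Clec1b, with 0.853%) and 1 of 3 in B cells (Pf4, with 0.486%). The sum in platelet-like barcodes had a relative ratio of 2.025 (1.97 to 2.08), near those of T and B cells.

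Other platelet genes were taken from lists of 42 genes that leave out the members. In neutrophils 5 of 34 measured were called higher in EBA blood, a share near the 14.2% of all genes. None was called lower, with 12.3% of all genes, and the median log2 relative ratio was 0.37. By CPM the balance turned, with 1 higher and 8 lower (4.41% and 54% of all genes). The 5 were Gp1bb, a subunit of the same receptor as Gp9, the nucleotide receptors P2rx1 and P2ry1, the myosin light chain Myl9, and Selp. In monocytes named by cluster 29 of 36 were higher and 2 lower (with 11% of all genes higher and 6.47% lower, median 1.87). In cluster 25, 5 of 18 were higher (Ctla2a, Myl9, Clu, F5 and Thbs1, with 2.98% of all genes higher). Only Cd36 was lower (with 2.29% of all genes lower), and the median was 0.42. By CPM 4 were higher and 2 lower in this cluster (2.38% and 2.77% of all genes). Myl9 had 109 CPM there in EBA blood and 15.2 in IgG blood. In neutrophil cluster 8, 0 of 37 were higher and 12 lower (median −0.78), against 9.89% and 9.27% of all genes. By CPM 29 were lower in that cluster, against 28.1%. In platelet-like barcodes 8 of 37 were higher, against 13.5% of all genes, and 0 lower, against 14.9% (median 0.42). By CPM 2 were higher and 2 lower there (5.49% and 21.9% of all genes).

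Across 15 class sums, the genes whose log2(CPM + 1) followed the summed members most closely of 10252 genes included Myl9, Ctla2a, Gp5, Cavin2, Mpig6b, Gp6, P2rx1, Slc6a4 and Mfsd2b. Their Pearson's r ran from 0.967 (Mfsd2b) to 0.984 (Myl9). The sums share libraries and depth, so r is a description.

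Neutrophil-like barcodes of each library were then ordered by the share of their UMIs that came from members, and the 25% with the largest share were set beside the 25% with the smallest. In IgG blood (113 barcodes each, median depth 2777 and 2192 UMIs) 28 of 34 other platelet genes were called higher in the first set, with 8.57% of all genes. In EBA blood (203 each, 6035 and 12165 UMIs) 31 of 34 were, with 17.1%. In IgG blood the von Willebrand factor gene Vwf had 398 and 10.9 CPM and the platelet glycoprotein gene Gp5 313 and 7.29. In EBA blood the tropomyosin gene Tpm2 had 298 and 0.773 CPM and the thrombospondin gene Thbs1 576 and 6.96. Cald1, Gas2l1, Tsc22d1 and Tubb2a were among the 10 leading genes in both libraries. The barcodes with most member RNA thus carried other platelet RNA as well.

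The genes lower in those barcodes differed by library. In EBA blood genes of neutrophil granules led them, with Camp at 976 and 18353 CPM, Ngp at 2064 and 26838 and Ltf at 413.5 and 6391. There 96.1% of the barcodes with the largest share lay in cluster 8 and 97.5% of those with the smallest in cluster 18. In IgG blood genes of antigen presentation and B cells led them, with Cd74 at 46.9 and 452 CPM, and H2-Aa at 2.93 and 160. Of 8 measured genes for leukocyte partners of platelets, such as Selplg and the integrin gene Itgam, 0 were called in IgG blood. There 8.57% of all genes were higher and 2.05% lower. In EBA blood 1 partner gene was higher and 2 were lower, with 17.1% and 13% of all genes. By CPM 4 were higher and 1 lower in EBA blood (29.1% and 5.66% of all genes).

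The same partner genes were compared between libraries in neutrophils, where 1 of 8 was called higher and 1 lower in EBA blood, near the 14.2% and 12.3% of all genes. By CPM 1 was higher and 4 were lower (4.41% and 54% of all genes). Cd177, a neutrophil surface protein that binds the platelet and endothelial protein PECAM-1, had 574 CPM in EBA and 33.4 in IgG blood (relative ratio 36.3, 26.75 to 50.7). The integrin gene Itgal had 135 and 688 CPM (0.415, 0.380 to 0.453). Selplg had 645 and 1430 CPM and Itgam 341 and 408, and neither was called on the relative scale.

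Neutrophils of inflamed skin held almost no platelet RNA. The 879 neutrophil-like barcodes of EBA skin had 35 member UMIs in all, or 10.4 CPM (7.22 to 14.4), against 53176 UMIs and 5586 CPM in the 814 of EBA blood. A member UMI was present in 0.341% of thinned barcodes (0.0704% to 0.994%) and in 3.87% without thinning, at a median depth of 3022 UMIs, and no barcode held more than 2. IgG skin had 1 neutrophil-like barcode and was not compared. Of the 35 UMIs 22 were Pf4, 7 Gng11 and 3 Clec1b, with 1 each of Ppbp, Itga2b and Alox12 and 0 of Nrgn, Treml1 and Gp9.

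Relative to the median of all genes, whose log2 ratio was 0.26, the sum in skin neutrophils was 0.00155 times that in blood (0.00108 to 0.00216). All 9 members were called lower, with 26.7% of all genes, and since the members were selected on this contrast nothing is read from that count. Counting 3 UMIs for each gene at 0, Nrgn was at least 865-fold lower, Gp9 at least 359.5-fold and Treml1 at least 237-fold. Of 34 other platelet genes 27 were lower and 3 higher (with 27.5% of all genes higher), with a median log2 of −4.88. The 3 were Sparc, Srgn and Thbs1, which other cells also make, with Thbs1 at 2070 CPM in skin and 195 in blood. Haemoglobin, by contrast, was present in 34.8% of thinned neutrophil-like barcodes of EBA skin and in 24.9% of those of EBA blood. Skin was digested with enzymes and blood was not, and the part of that difference in preparation cannot be told apart from the tissue.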

How the data were processed

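Single-cell suspensions were profiled with the 10x Genomics 3' v3 protocol, per the labels' protocols. The authors deposited 1 matrix per library of UMI counts, whole numbers with no normalization, per the file headers. Cell Ranger 3.0.0, Seurat 3.0.0 and 3.1.0 and mm10 are named in the submitters' processing notes, with no role given. The members and gene lists were chosen with earlier results of these data known.

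Barcodes with under 200 genes or over 10% mitochondrial UMIs were removed. For doublets, Scrublet (run through scanpy 1.11.5) marked 108 and 6 barcodes of IgG and EBA blood and 0 and 2 of IgG and EBA skin by its automatic threshold, so the highest scores were removed at 0.8% per 1000 barcodes (163, 94, 228 and 147). Clustering used 2000 variable genes, 30 components, 15 neighbours and Leiden resolution 1 (leidenalg 0.10.2). The EBA skin neutrophil cluster had 0.332 of its library's median depth and kept its name, since 4 of its 10 leading genes are neutrophil markers. Counts were summed per class and library (at least 20 barcodes). A gene was measured with at least 10 UMIs over both sums and 10 CPM in the higher. Poisson, Clopper-Pearson and conditional ratio intervals (scipy 1.17.1) are exact, at 95%. A count of 0 was bounded at 3 UMIs. The summing and interval steps were tested on simulated data.

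Named genes are the members, called genes of the lists, the 10 genes most like the members over class sums (at least 100 UMIs), and the 10 genes with the highest and the 10 with the lowest ratios between barcodes of large and small member share; 1 of these is not reported here. Alternatives were the doublet, mitochondrial and gene limits, the Leiden resolution, classing by detected markers, the thinning depth, the number of member UMIs, the scale of the ratio and the set of members.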

Additional observations from a re-analysis of the deposited data

Results flagged for a closer look

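The summed members moved in opposite directions by CPM in the 2 myeloid classes, with an EBA over IgG ratio of 0.710 in neutrophil-like and 3.35 in monocyte-like barcodes, and the difference was not tested. Relative to the median of all genes both ratios were above 1, at 1.503 and 4.70.

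Barcodes that were removed also held member UMIs, in 3 sets at a higher level in the EBA than in the IgG library. Those over the mitochondrial limit had 1494 CPM in EBA blood (1393 to 1600) and 221 in IgG blood, and 216 CPM in EBA skin (201 to 231) and 95.1 in IgG skin. Those removed as doublets had 242 CPM in EBA skin (224 to 262) and 93.25 in IgG skin. In blood the doublets removed had 1366 CPM in the EBA and 1665 in the IgG library.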

How the results depend on the processing

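No paired analysis was possible because each group has 1 library and all carry the number 1. Of 140 alternative values for the main results, 97 moved by no more than counting error (counts by no more than 1.5 times) and 43 by more; the cause was not tested. On the CPM scale the neutrophil log2 ratio of EBA over IgG blood changed sign, from 0.59 to −0.49, with 0 members higher and 1 lower, and the monocyte ratio was 1.75. Without doublet removal these log2 ratios were 0.74 (5 members higher) and 2.41, and with a mitochondrial limit of 5% they were 0.55 and 1.925. The monocyte ratio was 1.83 with a limit of 500 genes. With the 7 members other than Pf4 and Ppbp the ratios were 0.36 in neutrophils, 1.95 in monocytes and −10.02 for skin over blood, and the shares 69.0% (IgG neutrophils), 58.7% (EBA neutrophils) and 67.6% (EBA monocytes). Classed by detected markers alone, the monocyte ratio was 0.69 with 4 members higher and a share of 51.5% in EBA blood. Neutrophils had 72.8% in EBA blood and 1.42% in EBA skin, and skin over blood was −8.56. Thinned to 1000 UMIs, the shares were 87.4% and 76.7% in IgG and EBA neutrophils, 46.0% and 84.8% in monocytes and 2.09% in skin neutrophils. Asking for 3 or more UMIs gave 48.35%, 44.2%, 10.8%, 44.7% and 0%. Alternatives chosen after seeing the data were the following. With 863 platelet-led genes left out of the clustering the monocyte ratio was 1.88. Cluster 11 gave 1.74 and an IgG share of 52.1%, and cluster 25 gave 2.34 and shares of 12.6% and 38.6%. Neutrophil cluster 8 gave −0.58, 0 members higher, 3 lower, and shares of 97.1% and 93.2%. The requirement that cluster and detected markers both name a monocyte was also added then. Of 213 further values 118 stayed and 95 moved. Few member UMIs per barcode limit what can be seen in lymphocytes.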

Other observations

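Some of the 9 transcripts were found in resident cells of skin, where they are not limited to platelets. Pf4 had 4258 CPM in 146 macrophage-like barcodes of IgG skin and 1932 in 614 of EBA skin, while Ppbp, its neighbour, had 4.98 and 10.5 CPM in the same barcodes. Gng11 had 1166 CPM in lymphatic endothelial-like barcodes of IgG skin and 1399 in those of EBA skin, and 576.5 and 504 in vascular endothelial-like barcodes. Alox12 had 31.3 and 18.2 CPM in keratinocyte-like barcodes, and Nrgn 94.6 and 59.0 in T cell-like barcodes of skin. Itga2b had 170 CPM (16 UMIs) in 41 mast cell-like barcodes of EBA skin. Treml1 and Gp9 had at most 1 UMI in any skin class of either library.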
